A study of Mus musculus with 10 samples.

Results

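Long intergenic noncoding RNAs (lincRNAs) encoded on the autosomes that no cell line of the study carried in an extra copy were described in diploid and trisomic mouse embryonic stem (ES) cells. A probe was included if the array design named it as a lincRNA probe, if it was no control, and if its mm9 position lay on an autosome other than 6, 8, 11 and 15. This gave 3488 of the 4622 strand-specific lincRNA regions of the array, on 15 chromosomes, with 12129 of its 55681 probes. The regions lie in 2680 intervals, of which 808 carry probes for both strands. A region has a median of 3 probes and at most 10, and 540 regions have 1 probe. Probes of a region share their target, so they are not replicates. The median region is 10886 bp long, and every probe is 60 bases long and was spotted once.

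The diploid control (WT) was the male ES cell line AB1, strain AB1 in the labels, at passages 18 and 20. The lines Ts6 (passages 9 and 18), Ts8 (10 and 13), Ts11 (8 and 11) and Ts15 (11 and 14) carry an extra copy of chromosome 6, 8, 11 or 15 and are labelled as strain 129 S7/SvEvBrd. Each trisomy is represented by 1 line, for which the labels give neither sex nor parent line. Karyotype, line, labelled strain and passage therefore cannot be told apart. All cells, controls included, grew on γ-irradiated SNL76/7 feeder cells that were removed by letting them settle, and the 2 replicates of each group gave 10 1-colour arrays. The design text calls the replicates biological and separates them by passage only, so p-values measure the spread between these samples.

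LincRNA genes lie between protein-coding genes and give spliced, often polyadenylated transcripts with no long reading frame. Many were catalogued from chromatin that carries the histone marks of active promoters and transcribed gene bodies where no gene was known. Some act on chromatin near their own locus, some scaffold nuclear bodies, some host small RNAs, and several are needed to keep mouse ES cells undifferentiated.

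The probes that carry the results below are given as the files list them, 5′ to 3′. The first 2 belong to regions among the 6 with the brightest signal in WT. Capitals mark the 41 bases that each has in common with the array's probe for Rps2, a gene of the small ribosomal subunit. Here and below, bases in common were sought directly and as the reverse complement, so a shared stretch may lie on opposite strands.
chr2:143963320-143984245, forward strand: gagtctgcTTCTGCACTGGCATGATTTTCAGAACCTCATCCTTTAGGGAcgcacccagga
chr17:26679595-26688270, reverse strand: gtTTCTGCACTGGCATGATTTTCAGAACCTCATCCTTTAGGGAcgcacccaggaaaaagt

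A pair of overlapping regions on chromosome 5, each called higher in Ts8 and lower in Ts11, is probed by sequences with 57 bases in common, in capitals. These 2 probes cannot be counted as separate evidence.
chr5:14921737-14978834, forward strand: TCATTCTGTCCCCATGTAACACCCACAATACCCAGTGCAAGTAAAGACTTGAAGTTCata
chr5:14960146-14978541, forward strand: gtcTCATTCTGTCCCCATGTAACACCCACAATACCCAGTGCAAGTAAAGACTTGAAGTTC

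The remaining probes mark the regions with the widest differences between groups, the chromosome 5 run, the region called higher in every line with the widest differences, and RNAs with known roles. Capitals are absent because none of them shares 20 or more bases with a lincRNA probe of another interval or with a probe of a gene elsewhere.
chr14:77077374-77086910, forward strand: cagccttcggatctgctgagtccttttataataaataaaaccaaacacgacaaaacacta
chr5:14923900-15062725, forward strand: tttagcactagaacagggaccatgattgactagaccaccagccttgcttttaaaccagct
chr1:53215418-53244461, reverse strand: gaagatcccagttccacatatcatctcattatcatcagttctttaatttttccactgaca
chr13:22110479-22116629, reverse strand: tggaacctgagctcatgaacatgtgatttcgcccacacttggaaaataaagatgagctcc
chr10:109653855-109858347, reverse strand: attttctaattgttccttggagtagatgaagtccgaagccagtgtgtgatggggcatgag
chr7:106529142-106529752, reverse strand: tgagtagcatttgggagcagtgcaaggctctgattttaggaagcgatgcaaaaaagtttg
chr17:56791549-56803877, reverse strand: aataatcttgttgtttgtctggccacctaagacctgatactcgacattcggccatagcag
H19, chr7:149761435-149764019, reverse strand: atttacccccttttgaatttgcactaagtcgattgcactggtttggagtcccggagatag
Mirg, chr12:110973190-110987668, forward strand: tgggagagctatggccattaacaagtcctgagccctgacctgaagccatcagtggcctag

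In diploid ES cells most lincRNA probes gave a signal, at a level below that of other probes. Signal is given throughout as log2 of the scanner's processed intensity minus the array's 75th percentile over noncontrol spots, so 0 is that percentile. On both WT arrays 8624 lincRNA probes (71.1%) were well above background, against 77.4% of the 28845 other probes of the same autosomes. On neither array was this so for 23.2% and 18.9%. The median WT signal was -4.72 for lincRNA probes and -2.57 for the others, and 8.74% against 30.3% lay above the 75th percentile. The median of lincRNA probes was -4.80 on WT replicate 1 and -4.60 on replicate 2, so the gap to the other probes exceeded the gap between the arrays.

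**Figure D1:**
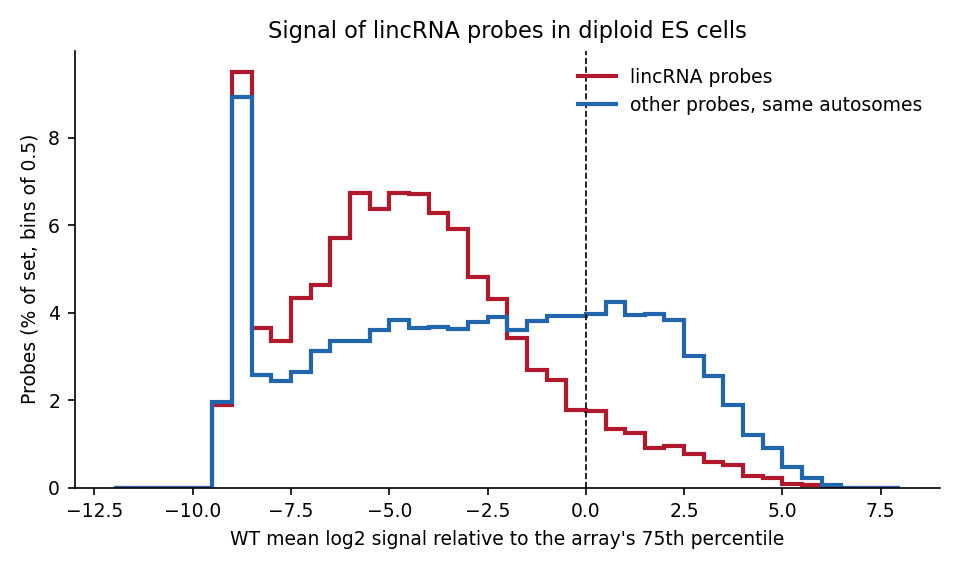
WT mean log2 signal relative to the array's 75th percentile (x axis) of the lincRNA probes (red) and the other probes of the same autosomes (blue), as percent of each set in bins of 0.5 (y axis), with a dashed line at the 75th percentile. The peak at the left holds probes at the scanner's surrogate value for dim spots; the lincRNA probes centre near their median of -4.72, and 8.74% of them lie right of the dashed line against 30.3% of the others.

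The signal of a lincRNA probe followed its base composition. Of probes with under 40% G and C, 59.5% were well above background on both WT arrays; this rose to 69.4% at 40 to 50% and to 91.4% from 50%. Near the 3′ end of a region it was less common: 62.9% within 500 bp of the end, 74.0% at 500 to 5000 bp and 75.8% farther away. The end was taken from the strand in the design. The 10th percentile of region length is 501 bp, so probes of short regions fall in the first group and position is mixed with length. Since brightness depends on the probe, levels of different probes are not amounts of RNA. By region, 3064 of 3488 had at least 1 probe above background in WT, 1728 had all of them and 424 had none. For the 808 intervals probed on both strands, each strand was read by its probe with the highest mean over the 10 arrays. In 733 intervals this probe was above background on both WT arrays for both strands, in 56 for only 1 strand and in 19 for neither. The WT signal of these probes differed by a median of 1.38 (log2) between the strands. The sources used here do not say which strand of the labelled product was hybridised, so these values do not assign a transcript to a strand.

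Of the 6 brightest regions, 2 were probed by sequence of Rps2 or its reverse complement. The region at chr2:143963320-143984245 (forward) measured 5.84 and 5.95 on the 2 WT arrays and the region at chr17:26679595-26688270 (reverse) 5.73 and 5.71. Their probes are those printed above with 41 bases of Rps2 each, and they have 52 bases in common with each other. A further bright region, chr17:39983902-39985688 (forward, 5.71 and 5.60), holds the array's probe for Rn18s, the RNA of the small ribosomal subunit. The other members of the brightest 6 measured 5.61 to 5.80 in WT. They were chr2:152172745-152184745 (reverse, 9.5 kb from Trib3, a stress-induced pseudokinase), chr14:78924115-78938125 (forward, near Akap11, an anchor of protein kinase A) and chr13:98528250-98551125 (forward). The chr2:152172745-152184745 probe has 20 bases in common with a lincRNA probe of another interval. The chr13:98528250-98551125 probe has 23 in common with a probe placed on chromosome 4. Signal of both probes is therefore not assigned to their loci alone. In Ts11 the chromosome 2 pair and the chr17:26679595-26688270 region differed from WT by -0.53 to -0.58, with limma adjusted p of 0.028 to 0.048, and none of the 3 calls held when 1 array was left out (adjusted p 0.067 to 0.16). Rn18s itself, on its own probe, measured -0.15 in Ts11 and was not called.

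Across the 10 arrays 71.4% to 80.2% of noncontrol spots were well above background and none was saturated. All 11 ES cell markers on the array were above background on every array. Of 14 fibroblast markers, 11 were above background on every array and Lum on none; their summed linear signal was 45.8 to 46.4 times the 75th percentile in WT, 34.1 to 41.6 in Ts6, 36.2 to 41.6 in Ts8, 39.0 to 46.0 in Ts11 and 49.2 to 55.7 in Ts15. Of these markers 1 of 13 tested was lower in Ts6 and 1 was higher in Ts15; their part in the results below was not tested. In bulk RNA, fewer cells of a type and less RNA per cell cannot be told apart. WT, Ts6, Ts8 and Ts11 shared slide 1, each in a slide column of its own, and both Ts15 arrays were on slide 2, so Ts15 and slide cannot be told apart, nor can group and slide column. On both slides replicate 1 lay in row 1 and replicate 2 in row 2.

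Each line was compared with WT in 1 limma fit. Tested were the 43056 probes for which some group had a signal well above background in both of its arrays. Of the lincRNA probes 8899, in 3127 regions, were tested, and 3230 were not. A probe could pass through any group, so counts below are counts of tested probes. A call is a Benjamini-Hochberg adjusted p under 0.05 over all tested probes, two-sided. All 4 comparisons share the 2 WT arrays.

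In Ts6, 323 lincRNA probes were higher and 365 lower (7.73% of those tested, against 8.54% of all tested probes). Higher were 3.63% of the lincRNA probes and 4.22% of all probes, lower 4.10% and 4.32%, and the median difference was -0.01 for lincRNA probes and for all probes. With normexp background correction the split turned to 385 higher and 273 lower. The count was 394 without WT replicate 1, 305 without WT replicate 2, 180 without Ts6 replicate 1 and 349 without Ts6 replicate 2. A lone array was then taken to vary like the other groups.

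In Ts8, 168 lincRNA probes were higher and 51 lower (2.46%, against 2.98% of all probes). Higher were 1.89% of the lincRNA probes and 1.76% of all probes, lower 0.573% and 1.21%. Of the called lincRNA probes 76.7% were higher, where the other probes of the same autosomes had 265 higher and 297 lower. The median difference was 0.12, against 0.05 over all probes and 0.01 over the other probes of the same autosomes. Under quantile normalization the split was 141 higher and 85 lower, with a median of 0.05. The count was 68 without WT replicate 1, 19 without WT replicate 2, 516 without Ts8 replicate 1 and 4 without Ts8 replicate 2, so the number of calls rested on which Ts8 array was used.

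In Ts11, 214 lincRNA probes were higher and 286 lower (5.62%, against 6.93% of all probes). Higher were 2.40% of the lincRNA probes and 3.34% of all probes, lower 3.21% and 3.60%, with medians of 0.00 for both sets. The split was 261 higher and 230 lower with normexp correction and 338 higher and 257 lower in the authors' deposited series table. The count was 249 without WT replicate 1, 156 without WT replicate 2, 257 without Ts11 replicate 1 and 195 without Ts11 replicate 2.

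In Ts15, 105 lincRNA probes were higher and 693 lower (8.97%, against 7.10% of all probes). Higher were 1.18% of the lincRNA probes and 2.04% of all probes, lower 7.79% and 5.06%. The median was -0.14, against -0.04 over all probes and -0.01 over the other probes of the same autosomes. Lower probes outnumbered higher ones less under other scalings, with 126 higher and 397 lower under quantile normalization, 105 and 300 with normexp correction and 147 and 367 in the deposited series table, where the medians were -0.05, -0.03 and -0.02. The count was 521 without WT replicate 1, 227 without WT replicate 2, 335 without Ts15 replicate 1 and 232 without Ts15 replicate 2.

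**Figure D2:**
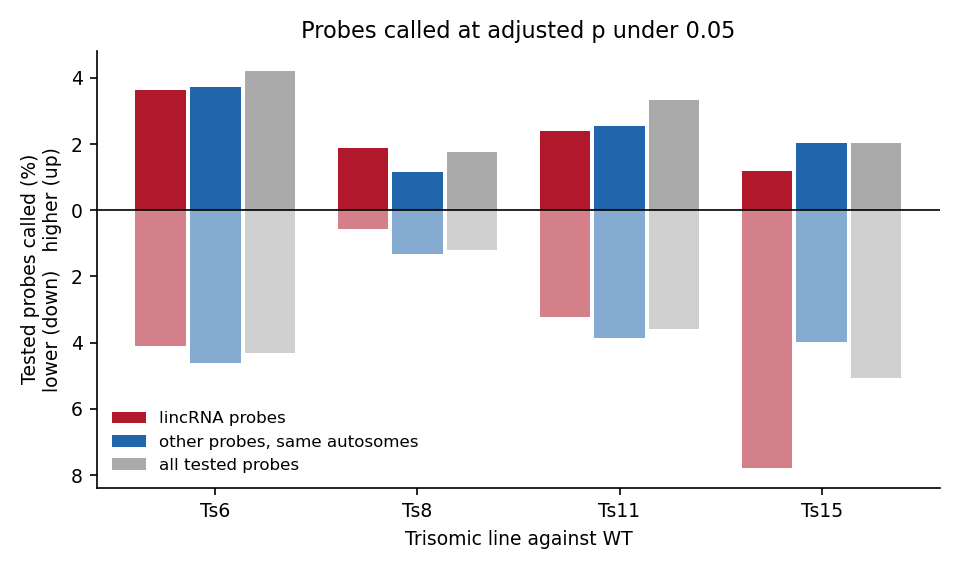
Percent of tested probes (y axis) called higher (upward bars) or lower (downward, lighter bars) than WT in each trisomic line (x axis), for lincRNA probes (red), other probes of the same autosomes (blue) and all tested probes (grey). LincRNA probes stand near the grey bars in Ts6 and Ts11; in Ts15 their lower share is 7.79% against 5.06% over all probes.

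The Ts15 difference varied with the brightness of a probe. Tested probes were grouped by mean signal over the 10 arrays. In Ts15 the median difference of lincRNA probes was -0.46 under a signal of -6, -0.24 at -6 to -4, -0.15 at -4 to -2, -0.02 at -2 to 0 and 0.06 above 0. In the same groups the other probes of these autosomes had -0.34, -0.16, -0.08, -0.04 and 0.05. The lincRNA medians were thus the lower ones in the 3 dimmest groups and the higher ones in the 2 brightest. At -4 to -2, 212 of 2547 lincRNA probes and 253 of 4244 other probes were called lower. In Ts8 the lincRNA medians were 0.05 to 0.14 in all 5 signal groups and those of the other probes -0.02 to 0.09. In Ts6 and Ts11 only the dimmest group stood apart, at -0.21 and -0.14 for lincRNA probes and -0.19 and -0.11 for the others.

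**Figure D3:**
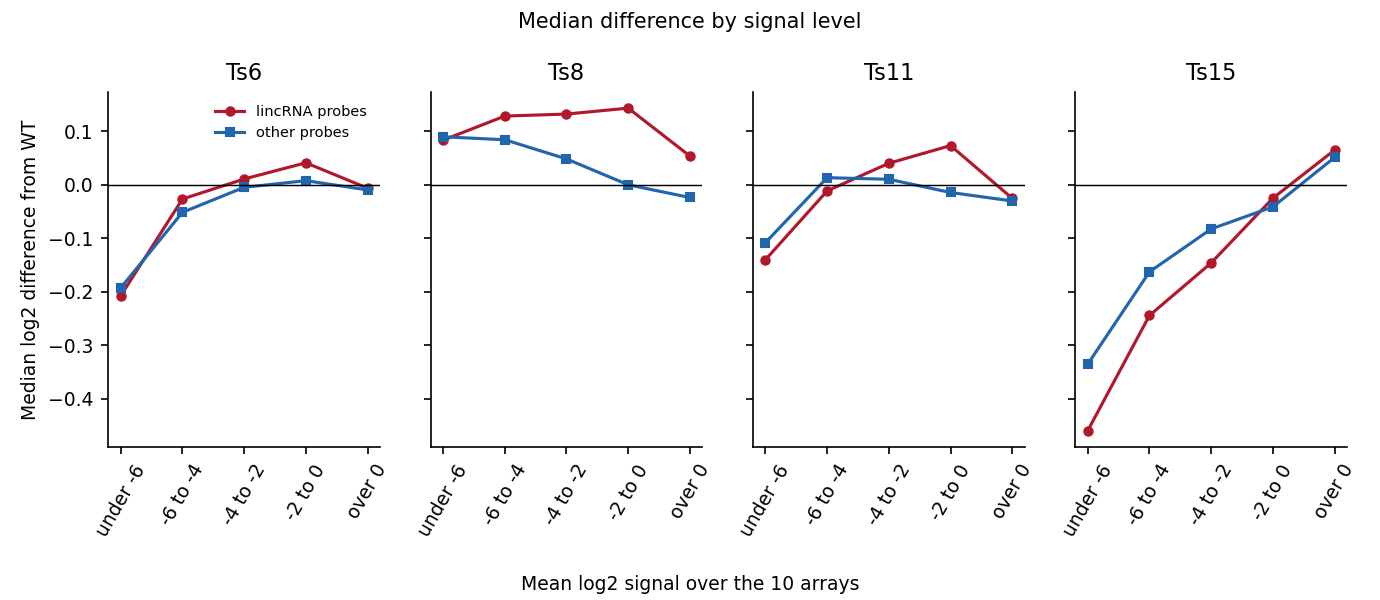
Median log2 difference from WT (y axis) of lincRNA probes (red circles) and other probes of the same autosomes (blue squares) in 5 groups of mean log2 signal over the 10 arrays (x axis), one panel per line. In Ts15 both curves rise with signal, from -0.46 to 0.06 for lincRNA probes; in Ts8 the red curve lies between 0.05 and 0.14.

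Position on the slide also moved with some calls. Of the tested lincRNA probes 50.4% lie on the right side of the array. Of those called higher in Ts6 64.4% did so, and of the 42 among them that were not well above background on either WT array 92.9%. Of those called lower in Ts15, 34.3% lay on the right side. The part of position in these calls was not tested.

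Calls by chromosome are given as a description, with no test of unevenness, beside those of the other probes of the same chromosome. In Ts11, 6.71% of the tested lincRNA probes of chromosome 10 were higher and 1.47% lower, against 1.88% and 4.20% of the other probes. On chromosome 9 it was 4.61% and 0.839%, against 2.81% and 2.87%. On chromosome 12 0.330% were higher and 6.77% lower, against 3.13% and 5.73%, and on chromosome 5 1.19% and 6.46%, against 2.06% and 3.54%. In Ts6, 3.03% were higher and 6.72% lower on chromosome 5, against 3.38% and 4.18% of the other probes. On chromosome 12 it was 2.31% and 5.94%, against 3.13% and 7.12%, and on chromosome 4 6.14% and 3.69%, against 4.10% and 4.55%. In Ts8 the median difference was 0.08 to 0.15 on each of the 15 chromosomes, and in Ts15 it was -0.02 on chromosome 10 and -0.10 to -0.18 on the other 14. Clusters of neighbouring regions, described below, hold part of the chromosome 5 and 12 calls.

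Probes of a region did not always move together. In Ts6, 462 regions had a called probe and 7 of them had probes called in both directions. Of the 398 called regions with several tested probes, all tested probes had the same sign in 62.8%; this was 65.8% of 152 in Ts8, 59.9% of 297 in Ts11 and 55.3% of 508 in Ts15. Several probes called in the same direction were found in 50 regions that were higher and 78 that were lower for Ts6, 26 and 7 for Ts8, 38 and 58 for Ts11, and 18 and 102 for Ts15. Below, a region is represented by that tested probe whose mean signal over the arrays was highest, and calls of its other probes are given. Named regions had 144 calls in the 4 lines. With passage as a covariate 34 remained, 25 of 45 in Ts6, 9 of 28 in Ts15 and 0 of 49 in Ts11 and 0 of 22 in Ts8 by limma. With only the 4 arrays compared it was 53, of which 38 were in Ts6, 13 in Ts15, 2 in Ts11 and 0 in Ts8.

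The widest separation among the lines was that of chr14:77077374-77086910 (forward), the region that holds the array's probe for 1700108F19Rik. It measured -0.10 and 0.17 (WT), 2.21 and 2.31 (Ts6), 1.86 and 1.92 (Ts11), -4.05 and -4.35 (Ts8), and -0.77 and -1.17 (Ts15). No 2 of the 5 groups overlapped. Ts6 differed from WT by 2.22 ± 0.18 (log2, SE, n = 2 per group; limma adjusted p = 0.00081) and Ts11 by 1.85 ± 0.18 (0.0034), whereas Ts8 differed by -4.24 ± 0.18 (0.00063) and Ts15 by -1.01 ± 0.18 (0.018). All 3 probes of the region were called higher in Ts6 and Ts11 and lower in Ts8, and 2 of 3 were lower in Ts15. Ts6 exceeded Ts8 by 6.46 ± 0.18. The region was chosen for its opposite calls, as were 5 others below, so such gaps between lines are given with no test. The probe of 1700108F19Rik itself differed by 3.40 in Ts6, -1.02 in Ts8 and 3.00 in Ts11, all called, and by -0.30 in Ts15, not called. The Ts15 call was lost without WT replicate 2 (-0.88, adjusted p = 0.097) and without Ts15 replicate 2 (-0.81, 0.087), whereas the other 3 held in every fit that left out 1 array.

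**Figure D4:**
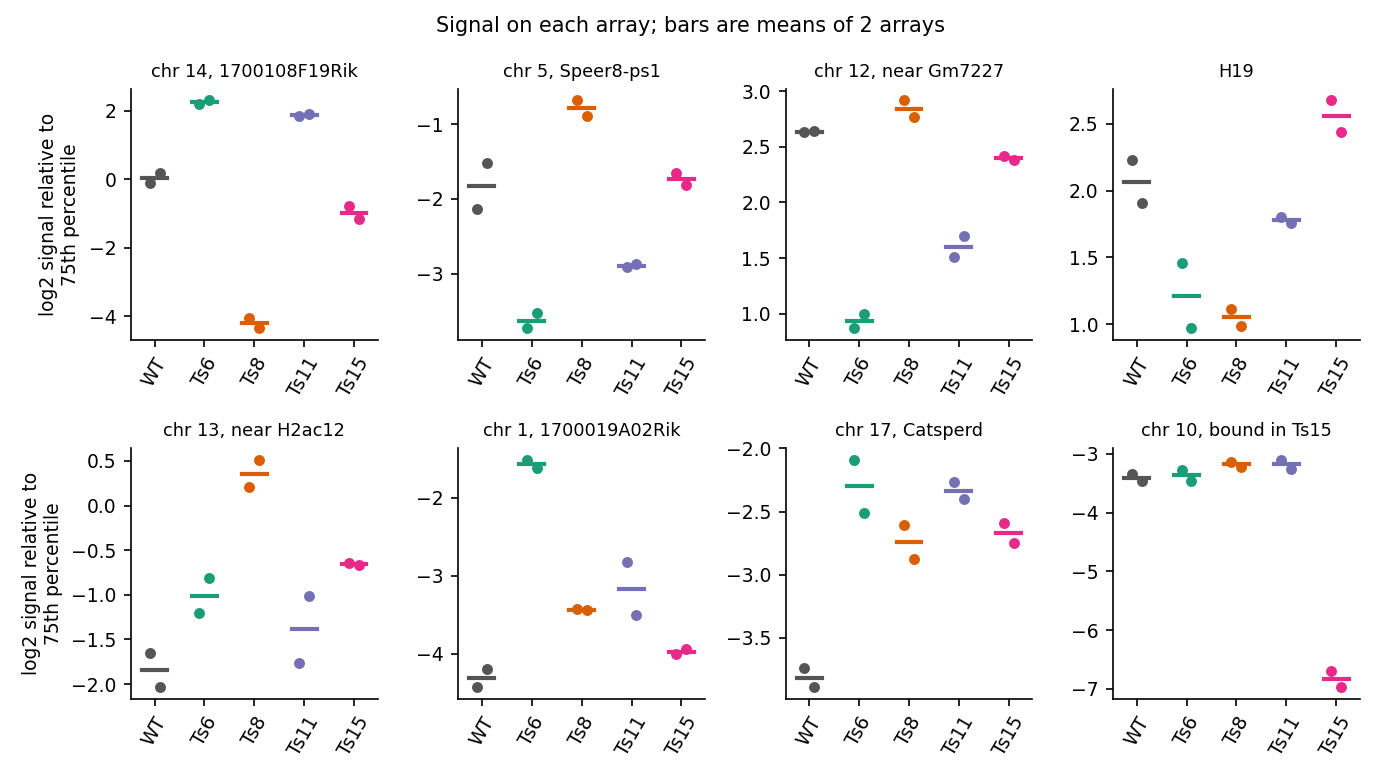
Log2 signal relative to the array's 75th percentile (y axis, a separate range per panel) on each array (points) and the mean of 2 arrays (bars) for 8 lincRNA regions in WT and the 4 lines (x axis). The chromosome 14 region spans -4.35 in Ts8 to 2.31 in Ts6, and the chromosome 10 region in Ts15, at -6.69 and -6.98, lies below its background threshold.

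Among regions that were higher in Ts6, chr1:53215418-53244461 (reverse) holds the probe of 1700019A02Rik. It measured -4.43 and -4.19 in WT and -1.52 and -1.62 in Ts6, so the groups lay far apart. The difference was 2.74 ± 0.21 (limma adjusted p = 0.00077), both of its probes were called, and the gene's own probe rose by 2.69. In Ts11 the same region measured -2.83 and -3.50, a difference of 1.15 ± 0.21 (0.022) that was lost without WT replicate 1 (1.03, 0.088) or WT replicate 2 (1.27, 0.067). The region at chr7:134603123-134614510 (forward) rose from -5.53 and -5.74 to -3.11 and -3.48 in Ts6, by 2.34 ± 0.21 (0.0012). Here the gene probe inside the region, for B130055M24Rik, gave -0.46 and was not called. The region chr1:23262523-23263246 (reverse), above background on 1 of 2 WT arrays, rose by 2.62 ± 0.52 (0.024), a call lost without WT replicate 1 (2.06, 0.11) or Ts6 replicate 2 (2.01, 0.098).

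Regions seen only against a dim control are given as bounds, the brighter group's mean over the lowest signal well above background. Where WT was dim, the named region passed the filter on dim probes through the bright line alone. Its direction was thereby fixed, and its adjusted p is given as a description. In Ts6, chr4:8983276-9173208 (forward) measured -4.23 and -4.10 where WT, at -8.85 and -8.82, was not well above background, which makes it at least 5.88-fold higher (limma adjusted p = 0.0017). The region chr2:104590593-104606218 (reverse), which holds the probe of Qser1, a DNA-binding protein of bivalent promoters, was at least 4.5-fold higher (0.00062; -4.61 and -4.50 against -9.11 and -8.87). Qser1's own probe gave -0.22. In the other 3 lines neither region was above background on any array. Both probes lie on the right side of the array, and each is the region's sole tested probe.

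The 4 lowest regions of Ts6 had the same order of groups. The region chr19:21653968-21671718 (forward) measured -1.60 and -1.44 (WT), -3.96 and -3.76 (Ts6), -3.38 and -3.20 (Ts11), -1.05 and -1.25 (Ts8) and -1.88 and -1.78 (Ts15). Ts6 was lowest, Ts11 next, and no Ts6 or Ts11 array reached WT. The differences were -2.34 ± 0.13 in Ts6 (limma adjusted p = 0.00043) and -1.77 ± 0.13 in Ts11 (0.0016), with 0.37 in Ts8 and -0.31 in Ts15, neither called. For chr7:69117827-69127242 (reverse) they were -2.13 in Ts6 (0.00055) and -1.32 in Ts11 (0.0038), and for chr2:108456668-108532418 (reverse) -2.12 (0.002) and -1.80 (0.0066). The fourth, chr18:77291264-77299664 (forward), gave -2.38 (0.00085) and -1.42 (0.0086). Each of these 8 calls held in all fits that left out 1 array. The 4 Ts11 calls were lost with passage as a covariate (0.087 to 0.17) and with only the 4 arrays compared (0.052 to 0.059). No named gene with a tested probe lay within 50 kb of 3 of the 4 regions. Only 1 probe was called in each region. The regions chr5:26333765-26338143 (forward) and chr2:36112819-36114110 (forward) fell below background in Ts6, by at least 1.83-fold (0.0069) and 1.61-fold (0.02). The second call was lost in each fit that left out 1 array (0.053 to 0.14).

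In Ts8 the highest lincRNA signal relative to WT came from both strands of 1 interval in the histone gene cluster of chromosome 13, chr13:22110479-22116629, 10.4 kb from the probe of the histone gene H2ac12. On the reverse strand it measured -1.65 and -2.04 (WT), 0.20 and 0.51 (Ts8), -1.21 and -0.81 (Ts6), -1.76 and -1.01 (Ts11) and -0.64 and -0.67 (Ts15). Both Ts8 arrays lay above all others. The difference was 2.20 ± 0.27 (limma adjusted p = 0.019), and all 5 probes were called. It was lost without WT replicate 2 (2.01, 0.073) and without Ts8 replicate 2 (2.05, 0.11). The forward strand rose by 1.77 ± 0.15 (0.01), a call lost without Ts8 replicate 2 (1.85, 0.06). H2ac12's own probe gave -0.13 in Ts8. In Ts15 the strands measured 1.19 (0.041) and 0.77 (0.029); the reverse strand's call was lost in each fit that left out 1 array (0.068 to 0.18), the forward strand's in 3 of 4.

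The other highest regions of Ts8 were chr2:71205705-71226510 (forward, 1.43 ± 0.23, limma adjusted p = 0.031) and chr12:77544397-77564122 (forward, 1.35 ± 0.24, 0.039). The second has a probe called in the opposite direction. Each of these calls held in 1 of 4 fits that left out 1 array and was lost without either WT array or Ts8 replicate 2 (adjusted p up to 0.13 and 0.19). Besides the chromosome 14 region, the lowest in Ts8 included chr9:78107225-78118850 (forward), whose probe is identical over 60 bases to the array's probe for Gsta1, a glutathione S-transferase placed 16.8 kb away. It measured -3.24 and -4.19 in WT and -4.93 and -5.28 in Ts8, a difference of -1.39 ± 0.28 (0.049). It was lost without WT replicate 1 (-0.91, 0.078), Ts8 replicate 1 (-1.57, 0.051) or Ts8 replicate 2 (-1.21, 0.23). In Ts6 it fell by 1.33 (0.029), held in 1 of 4 such fits. The region chr2:71585563-71588257 (reverse) fell by 1.20 in Ts8 (0.031), 1.06 in Ts11 (0.022) and 1.12 in Ts15 (0.018) but measured 0.63 in Ts6, not called; each of the 3 calls was lost without WT replicate 2 (adjusted p 0.089 to 0.11) and without replicate 2 of the line (0.094 to 0.16). Its nearest gene, Platr26, a lincRNA of pluripotent cells, rose by 2.06 in Ts6, 1.50 in Ts11 and 1.52 in Ts15, the opposite of the region in Ts11 and Ts15. A dim region, chr13:65581475-65593800 (forward), was at least 1.53-fold higher in Ts8 (limma adjusted p = 0.041). Near the kinase gene Sgk1, chr10:21688115-21710890 (reverse) was at least 1.4-fold lower in Ts8 (0.031). Each of these 2 calls held in 1 of 4 fits that left out 1 array. The chromosome 13 region was also called lower in Ts6, a call lost in each such fit (-0.75 to -0.89).

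In Ts11, chr2:52241435-52245307 (forward) had the highest difference. It measured -6.91 and -6.39 in WT, where 1 of 2 arrays was above background, -4.80 and -4.16 in Ts11 and -5.01 and -4.78 in Ts15. Ts11 was higher by 2.17 ± 0.26 (limma adjusted p = 0.0065) and Ts15 by 1.75 ± 0.26 (0.012), with both tested probes called in each. The Ts15 call was lost without Ts15 replicate 2 (1.64, 0.069). The region chr10:92547995-92556102 (forward) rose from -4.94 and -5.06 to -3.04 and -3.22 in Ts11, by 1.87 ± 0.13 (0.0013), and by 1.36 in Ts6 (0.0017). The region chr2:165802256-165805186 (reverse) rose by 1.83 ± 0.21 in Ts11 (0.0053) and 0.99 in Ts15 (0.035), the latter lost in each fit that left out 1 array (0.089 to 0.14). The dim regions chr1:44915250-44944125 (reverse) and chr1:73664661-73911040 (reverse, 45.8 kb from the adhesion gene Tns1) were at least 2.4-fold (0.029) and 1.96-fold (0.012) higher. The first was lost in each fit without 1 array (0.072 to 0.12), the second without WT replicate 1 (0.051) or Ts11 replicate 2 (0.059).

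The lowest region of Ts11, chr13:21860993-21862345 (forward, 9.6 kb from the linker histone gene H1f5), measured -3.66 and -3.61 (WT), -5.89 and -5.66 (Ts11), -5.70 and -5.74 (Ts6), -2.78 and -3.88 (Ts8) and -4.42 and -4.10 (Ts15). Ts6 and Ts11 lay below every array of the other groups. The difference was -2.14 ± 0.31 in Ts11 (limma adjusted p = 0.011) and -2.09 ± 0.31 in Ts6 (0.0083). The Ts11 call was lost without WT replicate 2 (-2.12, 0.061) or Ts11 replicate 1 (-2.03, 0.05) and the Ts6 call without Ts6 replicate 1 (-2.11, 0.059). The region chr5:123439974-123448354 (forward), which holds A930024E05Rik, fell by 1.95 in Ts11 (0.011) on all 3 of its probes, and the gene's probe by 1.37. Without WT replicate 2 (0.066) or Ts11 replicate 2 (0.051) that call was lost. In Ts6 it fell by 1.24 (0.039), lost in each fit that left out 1 array (0.086 to 0.2). The region chr4:124127144-124334840 (reverse), above background on 1 of 2 Ts11 arrays, fell by 1.90 (0.0049), held in all 4 such fits. The region chr18:38776580-38841080 (reverse, 30.6 kb from Spry4, an inhibitor of receptor tyrosine kinase signalling) fell by 1.88 ± 0.40 (0.034), lost without either WT array or Ts11 replicate 2 (up to 0.15). Near Spry1, of the same family, chr3:37547973-37548436 (reverse) was at least 1.55-fold lower in Ts11 (0.031) and 1.57-fold lower in Ts15 (0.02), and each call was lost when any 1 array was left out (0.071 to 0.12 and 0.055 to 0.1). Near Gmnn, which encodes the replication inhibitor geminin, chr13:24833082-24838461 (forward) was at least 1.85-fold lower in Ts11 (0.039), a call that held in 1 of 4 such fits (up to 0.15).

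In Ts15, chr7:106529142-106529752 (reverse) had the highest difference. It measured -2.10 and -1.98 (WT), -0.03 and -0.52 (Ts15), -3.04 and -2.86 (Ts11), -1.91 and -2.36 (Ts6) and -2.24 and -2.41 (Ts8). Ts15 lay above and Ts11 below all other arrays. Ts15 exceeded WT by 1.77 ± 0.21 (limma adjusted p = 0.0051), on 2 of 3 probes, and Ts11 was at -0.91 ± 0.21 (0.041), a call lost in each fit that left out 1 array (0.1 to 0.15). Ts11 against Ts15 gave -2.68 ± 0.21. Its nearest gene, 35.1 kb away, is Serpinh1, a collagen chaperone, which rose by 0.57 in Ts15. The region chr7:134643616-134651441 (reverse) rose from -0.25 and 0.01 to 1.29 and 1.06, by 1.30 ± 0.13 (0.0037), and chr3:57414750-57427825 (reverse) by 1.40 ± 0.24 (0.018). The second was lost without either Ts15 array (0.081 and 0.082). It was also called in Ts8 (1.19, 0.049) and Ts11 (1.10, 0.038), each held in 1 of 4 fits that left out 1 array (up to 0.16 and 0.13), and WT was above background on 1 array. A dim region, chr12:55401761-55418611 (forward), was at least 1.49-fold higher (0.0053).

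Lower regions made up most of the Ts15 calls. In chr10:109653855-109858347 (reverse) WT measured -3.35 and -3.46, Ts6 -3.27 and -3.46, Ts8 -3.14 and -3.22 and Ts11 -3.10 and -3.26, whereas Ts15, at -6.69 and -6.98, was not well above background. Ts15 was at least 7.17-fold lower (limma adjusted p = 0.00061), and 1 of 2 tested probes was called. The regions chr1:153685487-153710962 (reverse) and chr3:45163252-45179177 (forward, 17.6 kb from the protocadherin gene Pcdh10) fell by 2.36 ± 0.15 (0.0014) and 2.07 ± 0.18 (0.0029), the first to above background on 1 of 2 Ts15 arrays. The region chr9:61881496-61881935 (reverse) fell by 1.96 ± 0.16 (0.0027), and chr1:23334791-23335367 (forward) was at least 3.24-fold lower (0.003). In these 5 regions the other lines stayed within 0.24 of WT, the calls held in all fits that left out 1 array, and 1 probe per region was called. In chr5:20459718-20462031 (forward) the WT arrays themselves differed, at -4.08 and -2.31, and the difference of -2.15 ± 0.47 (0.037) was lost without either Ts15 array (0.14 each); without WT replicate 2 it was -1.27. The endoderm markers Gata4, Gata6, Sox17, Foxa2, Dab2 and Afp moved with Ts15: 5 of 6 were higher, and their summed linear signal was 9.67 to 13.2 times the 75th percentile against 3.00 to 4.56 on the other 8 arrays. Their part in the lincRNA differences was not tested.

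Called regions that overlap or lie near each other were joined into runs. A run has at least 3 regions called in the same direction, with gaps of at most 500 kb. The runs are a description with no test. There were 22 runs with 92 region calls: 7 in Ts6 (2 of them higher), 2 in Ts8 (both higher), 5 in Ts11 (1 higher) and 8 in Ts15 (none higher). The longest lay on chromosome 5 between 14921737 and 15223375, where the Speer family, testis genes that occur in many similar copies, is found. It held 11 tested regions, of which 8 were lower in Ts6 (-0.95 to -1.91) and 8 in Ts11 (-0.69 to -1.40); 4 regions of its left part were higher in Ts8 (0.81 to 1.04).

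The region chr5:14923900-15062725 (forward), which holds Speer8-ps1, measured -2.13 and -1.53 (WT), -3.73 and -3.52 (Ts6), -2.91 and -2.87 (Ts11), -0.68 and -0.89 (Ts8) and -1.65 and -1.81 (Ts15). WT and Ts15 overlapped, Ts8 lay above them and Ts11 and Ts6 below. The differences from WT were -1.80 ± 0.20 (limma adjusted p = 0.0027) in Ts6, -1.06 ± 0.20 (0.025) in Ts11, 1.04 ± 0.20 (0.044) in Ts8 and 0.10 in Ts15. All 5 probes were lower in Ts6 and Ts11. Ts6 against Ts8 gave -2.84 ± 0.20. The Ts8 and Ts11 calls each held in 1 of 4 fits that left out 1 array (up to 0.16 and 0.09). In the same contrast chr5:14996031-15035334 (forward) gave -2.39 ± 0.11 and chr5:14921737-14978834 (forward) -2.07 ± 0.16. At the right end chr5:15176325-15223375 (reverse), which holds Speer4cos, fell by 1.91 in Ts6 (0.0052) and 1.40 in Ts11 (0.021), and the probe of Speer4cos by 2.18 and 1.72. The probe of Speer8-ps1 fell by 1.25 in Ts6 and 0.64 in Ts11 and rose by 0.77 in Ts8. It has 45 bases in common with the probe of chr5:14921737-14978834 and 48 with that of chr5:14960146-14978541, so it is no separate reading of those regions.

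**Figure D5:**
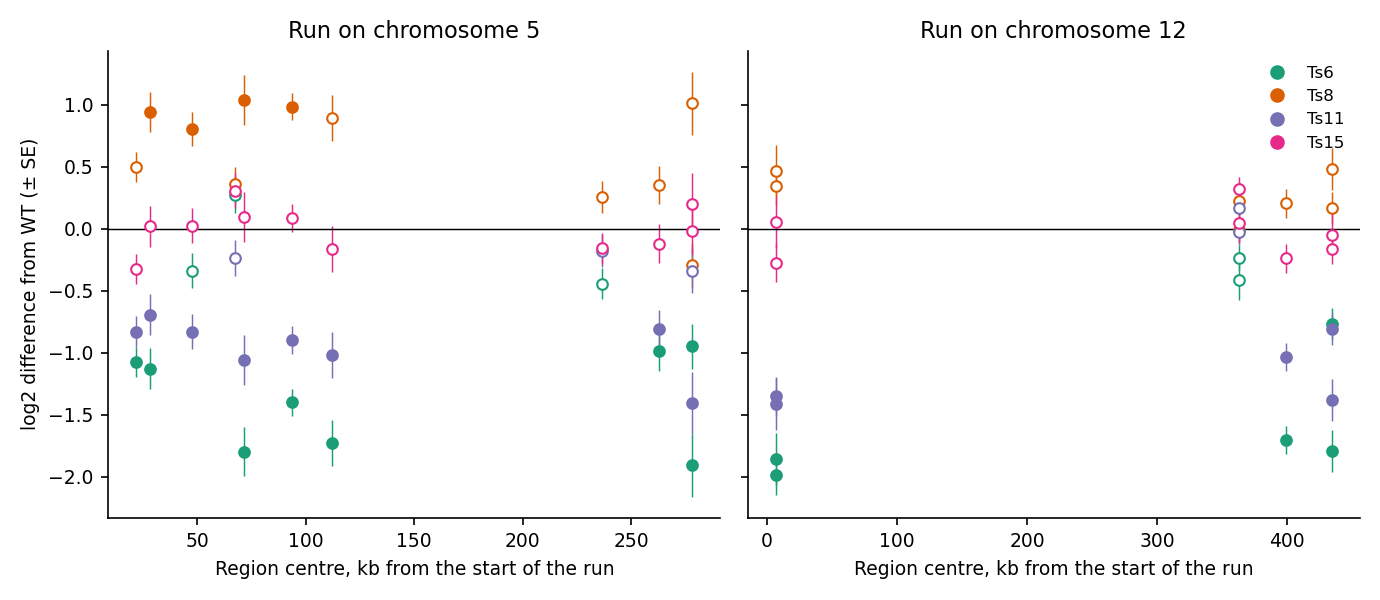
Log2 difference from WT ± SE (y axis) of every tested lincRNA region in the runs of chromosome 5 (left) and chromosome 12 (right), by distance of the region's centre from the start of the run in kb (x axis), in the 4 lines (colours). Filled points were called and open points were not; the called Ts6 and Ts11 points lie below 0, from -0.69 to -1.99, and the called Ts8 points, all on chromosome 5, between 0.81 and 1.04.

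On chromosome 12 a run from 89092175 to 89533975 held 7 tested regions, of which 5, in 3 intervals, were lower in Ts6 (-0.76 to -1.99) and the same 5 in Ts11 (-0.81 to -1.41). Its brightest region, chr12:89479525-89503525 (forward), measured 2.63 and 2.64 (WT), 0.87 and 1.00 (Ts6), 1.51 and 1.69 (Ts11), 2.92 and 2.77 (Ts8) and 2.42 and 2.39 (Ts15). Ts6 and Ts11 were separate from each other and from the rest. The differences were -1.70 ± 0.12 (limma adjusted p = 0.0007) and -1.03 ± 0.12 (0.0052), on all 3 probes, and held in all fits that left out 1 array. Of the genes in the run, Gm7104 fell by 1.42 and 0.82 and Gm5039 by 1.08 and 0.59. Probes of the run share sequence: the 2 strands of chr12:89092175-89105525 have 47 and 29 bases in common with probes of chr12:89519675-89533975. Among all tested lincRNA probes, 285 (3.20%) have 20 or more bases in common with a lincRNA probe of another interval; among those lower in Ts6 and Ts11 it was 7.95% and 7.69%, and among those higher in these lines 0 of 323 and 0 of 214.

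Markers of the 2-cell-like state, a rare state of ES cell cultures with active Zscan4 genes, moved with these runs. Of 11 listed genes 9 were on the array and 8 of them above background on every array. Their summed linear signal was 34.9 to 35.0 times the 75th percentile in WT, 15.4 to 16.1 in Ts6, 42.2 to 43.8 in Ts8, 20.01 to 22.5 in Ts11 and 31.4 to 32.6 in Ts15. Ts8 was highest and Ts6 lowest, followed by Ts11, as at chr5:14923900-15062725. Of the 9, 6 were lower in Ts6 and 4 in Ts11, and none was called in Ts8 or Ts15. Their part in the lincRNA differences was not tested.

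Other runs had 3 to 5 regions. In Ts15, 5 regions between 94065827 and 94189810 on chromosome 13, beside Homer1, were lower by a median of -1.72. In 2 of them Ts15 was not above background, and with these at their bound, or at 0 where there was none, the median was -0.52, and Homer1, a postsynaptic scaffold gene, fell by 0.80. Of these, chr13:94189389-94189810 (forward) measured -6.52 and -6.53 in WT, -8.45 and -8.05 in Ts15, where it was not above background, and -4.89 and -4.69 in Ts6. Ts6 was at least 2.74-fold above Ts15. Against WT both calls held in 1 of 4 fits that left out 1 array (up to 0.055 in Ts6 and 0.072 in Ts15). In Ts6, 5 of 9 tested regions between 134369091 and 134610975 on chromosome 7 were lower by a median of -0.80. The region chr7:134603123-134614510 (forward), given above as higher in Ts6, overlaps the right end of this span. On chromosome 4, all 4 tested regions between 59093718 and 59122541 were higher in Ts6 (1.25 to 1.37) and in Ts11 (0.94 to 1.17). On chromosome 12, 4 of 8 tested regions between 110894095 and 110988678, in the imprinted domain of Meg3, Rian and Mirg, were lower in Ts6 by a median of -1.01 and in Ts11 by -0.87.

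By the probe that represents it, 5 regions were called in all 4 lines, each higher than WT. Counting every probe, 7 probes in 6 regions were higher and 6 probes in 5 regions lower in all 4 lines. All 4 comparisons use the same WT arrays, whose labelled strain differs from that of all the lines. Both strands over Catsperd, a subunit gene of the sperm calcium channel, were among them. The reverse strand, chr17:56791549-56803877, measured -3.74 and -3.89 in WT and -2.09 to -2.88 on the 8 arrays of the lines. It was higher by 1.51 in Ts6 (limma adjusted p = 0.0029), 1.07 in Ts8 (0.031), 1.48 in Ts11 (0.0057) and 1.14 in Ts15 (0.012), with 4, 2, 4 and 3 of 5 probes called. The forward strand, chr17:56790296-56803875, gave 1.03 to 1.53. Catsperd's own probe rose by 1.51, 1.48 and 1.26 in Ts6, Ts11 and Ts15 and measured 0.95 in Ts8. It has 58 of 60 bases in common with the forward-strand region's probe, so these are not separate evidence. In Ts6 and Ts11 both strands held in all fits that left out 1 array. The Ts8 calls were lost in 3 of 4 fits on the reverse strand (up to 0.11) and in all on the forward strand (0.06 to 0.15), and the Ts15 calls in 2 and 3.

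The other 3 such regions differed less. The region chr4:3756167-3757483 (reverse), 4.1 kb from the ribosomal protein gene Rps20, was higher by 0.95 to 1.06 (adjusted p 0.017 to 0.037), on all 3 probes in Ts6, and chr4:82979473-83035023 (reverse) by 0.64 to 1.04 (0.006 to 0.041). The region chr3:34497447-34501170 (reverse), 49.6 kb from the pluripotency gene Sox2, was higher by 0.85 in Ts15, 0.79 in Ts8, 0.63 in Ts11 and 0.57 in Ts6 (limma adjusted p 0.0094 to 0.029), while Sox2 measured -0.28 to 0.05 and was not called. Of these 12 calls, 2 held in 3 of 4 fits that left out 1 array, Ts6 for chr4:82979473-83035023 and Ts15 for the region near Sox2, and the rest held in 1 or none.

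Known noncoding RNAs were taken from a list of 60 genes, of which 31 on these autosomes were found by their own probes and 30 were tested. Ts6 had 2 higher and 3 lower, Ts8 had 1 and 1, Ts11 had 2 and 1 and Ts15 had 1 and 1, with medians of -0.04, 0.14, -0.01 and 0.14. Within 5 kb of a probe of such a gene lay 47 lincRNA regions, of 17 genes. Of these, 3 were higher and 5 lower for Ts6, 2 and 1 for Ts8, 4 and 3 for Ts11, and 2 and 2 for Ts15. Over all 3127 tested regions, by the same kind of probe, 2.81% were higher and 3.74% lower for Ts6, 1.69% and 0.384% for Ts8, 2.53% and 2.97% for Ts11, and 1.31% and 8.03% for Ts15. Most stayed within 0.5 of WT, among them the regions of Norad, Terc and Kcnq1ot1, an RNA that silences imprinted neighbours. The Kcnq1ot1 region measured 0.73 and 0.78 in WT and 0.66 to 0.95 in the lines. A gene probe of Kcnq1ot1 differed more, by 0.88 (Ts11), 0.60 (Ts8), -0.65 (Ts15) and -0.42 (Ts6), with no call. That of Terc gave 0.61 (Ts15), 0.59 (Ts8), -0.16 (Ts6) and 0.12 (Ts11), also uncalled. For Norad the gene probe lay between -0.25 and 0.14.

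H19, an imprinted RNA expressed from the maternal allele, measured 2.23 and 1.91 (WT), 1.46 and 0.97 (Ts6), 1.80 and 1.76 (Ts11), 1.12 and 0.99 (Ts8) and 2.67 and 2.44 (Ts15). Ts6, Ts8 and Ts11 lay below both WT arrays and Ts15 above them. The differences were -0.85 ± 0.19 (limma adjusted p = 0.034) in Ts6 and -1.02 ± 0.19 (0.041) in Ts8, with 4 of 5 probes called in each, and -0.29 in Ts11 and 0.49 in Ts15, not called. The separate H19 gene probe gave -0.68 and -0.84, both called. Of the fits that left out 1 array, the Ts6 call held only without Ts6 replicate 1, with adjusted p up to 0.14 in the others, and the Ts8 call in none (0.052 to 0.19).

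In the imprinted domain of chromosome 12, the region of Mirg, a microRNA host, at chr12:110973190-110987668 (forward), measured 2.07 and 1.97 (WT), 1.05 and 1.14 (Ts6), 1.05 and 0.90 (Ts11), 1.77 and 2.27 (Ts8) and 2.09 and 2.06 (Ts15). Ts6 and Ts11 overlapped each other and lay below the rest. It fell by 0.92 in Ts6 and 1.04 in Ts11, and the longer chr12:110944403-110988678 (forward) by 1.20 and 1.27. The brighter of Mirg's 2 gene probes fell by 0.86 (limma adjusted p = 0.012) and 0.84 (0.017), and that of Meg3, a growth-suppressing RNA of the same domain, by 0.95 in Ts6 (0.026), with -0.56 in Ts11, not called. Without 1 array the shorter region's call was lost in all 4 fits in Ts6 (0.061 to 0.12) and in 3 of 4 in Ts11 (up to 0.069), and each call of the longer region in 2 of 4 (up to 0.08 and 0.058). In the Gnas domain, another imprinted locus, chr2:174092104-174106704 (reverse) measured 0.25 and 0.55 (WT), -1.51 and -1.41 (Ts6), -1.11 and -0.97 (Ts11), 0.90 and 0.57 (Ts8) and 0.19 and 0.16 (Ts15). It fell by 1.86 in Ts6 and 1.44 in Ts11, in every fit that left out 1 array. The gene probe of the antisense RNA Nespas (now Gnasas1) measured -0.37 and -0.34 and was not called. The longer chr2:174088550-174109425 (reverse), which encloses the region, was not called in Ts6 or Ts11 either. It was called lower in Ts15, a call lost in each fit that left out 1 array (-0.63 to -0.79).

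NEAT1, the scaffold of paraspeckles, at chr19:5842306-5845476 (reverse), measured 0.76 and 0.87 in WT and 0.87 to 1.37 in the lines. It was not called on this probe, while 2 of its 5 probes were called higher in Ts11. The array's own Neat1 probe was also called higher in Ts11, by 0.49 (limma adjusted p = 0.04). It gave 0.08 in Ts6, 0.32 in Ts8 and 0.15 in Ts15, not called. It has 30 bases in common with the region's probe. The region BRN1-A, chr1:42705044-42751670 (reverse), lies beside the neural gene Pou3f3's antisense RNA Pantr1. It was higher in Ts6 by 2.12, with WT arrays at -7.00 and -5.79, of which 1 was above background. The call held in 1 of 4 fits that left out 1 array, and another probe of the region was called lower. Pantr1's own probe measured -0.61 in Ts6 and was not called. The overlapping chr1:42689799-42749799 (reverse) was not called in Ts6 either. It was called higher in Ts11 and lower in Ts15. Both calls were lost in each fit that left out 1 array (0.45 to 0.65 in Ts11, -0.46 to -0.67 in Ts15).

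At or within 5 kb of a probe of Airn, which silences Igf2r in cis, lay 2 called regions. The region chr17:13008796-13023201 (forward) rose by 1.53 in Ts6 and chr17:12941161-12944859 (forward) by 1.26 in Ts11. The first call was lost without Ts6 replicate 1 (1.40) and its region has a probe called lower, while all 5 probes of the second were called higher. Airn's brightest tested gene probe measured -0.11 in Ts6 and 0.24 in Ts11 and was not called. Nor was chr17:12990484-13018375 (forward), which overlaps the first region, called in Ts6 or Ts11. It was called higher in Ts15, a call lost in each fit that left out 1 array (0.48 to 0.74). By the same rule chr1:162965309-162970704 (reverse), of Gas5, a host of small nucleolar RNAs, rose by 0.61 in Ts8. The region chr14:115443612-115445950 (forward), of Mir17hg, a microRNA host, rose by 0.72 in Ts8. These 2 calls held in none and in 1 of 4 fits that left out 1 array (up to 0.17 and 0.2). In Ts8 the brightest tested gene probe of Gas5 measured 0.06 and the gene probe of Mir17hg 0.80, and neither was called. Regions that the array design itself names were mostly level. NRON, a repressor of the transcription factor NFAT, was at -0.60 in Ts6 (limma adjusted p = 0.028), lost in each fit without 1 array (0.091 to 0.15). PINC, an RNA of mammary epithelium, fell by 0.97 in Ts15 (0.0065) in all of them. lincP21, a p53 target beside Cdkn1a, measured -2.58 and -2.60 in WT and -2.39 to -2.99 in the lines and was not called, while Cdkn1a itself rose by 1.64 in Ts11.

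For 2400 of the 3127 tested regions, a named gene with a tested probe lay within 50 kb, at a median distance of 5.8 kb; in 630 the gene's probe lay inside the region. Where the lincRNA region was higher, the neighbour was higher in 11 of 63 cases in Ts6, 4 of 43 in Ts8, 16 of 62 in Ts11 and 4 of 30 in Ts15, and lower in none. Where it was lower, the neighbour was lower in 18 of 93 in Ts6, 2 of 11 in Ts8, 18 of 75 in Ts11 and 10 of 176 in Ts15, and higher in 3, 0, 4 and 3. Beside uncalled regions 0.810% to 3.21% of the neighbours were higher and 0.853% to 3.70% lower. With the gene's probe outside the region, the neighbour of a higher region was higher in 2 of 41 in Ts6, 0 of 29 in Ts8, 4 of 38 in Ts11 and 1 of 18 in Ts15, and that of a lower region lower in 7 of 62, 0 of 7, 4 of 46 and 7 of 144, and higher in 3, 0, 4 and 3. These shares rest on few cases and share genes between regions, and are given as a description.

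In contrasts among the lines, none of which uses the WT mean, 2488 lincRNA probes in 1509 regions differed by limma's moderated F test (28.0% of those tested, against 27.6% of all probes). It was 1206 without Ts6 replicate 1, 1519 without Ts6 replicate 2, 1404 without Ts15 replicate 1 and 1194 without Ts15 replicate 2. Ts6 and Ts11 were the least different pair, with 280 probes higher in Ts6 (3.15%, against 3.55% of all probes) and 174 lower (1.96%, against 2.95%). Ts8 and Ts15 were the most different, with 1637 higher in Ts8 (18.4%, against 12.6%) and 171 lower (1.92%, against 4.64%), and their medians differed by 0.27 for lincRNA probes and 0.07 for all probes. In Ts6 against Ts15, 1196 were higher (13.4%, against 10.8%) and 452 lower (5.08%, against 6.71%), and in Ts11 against Ts15 959 were higher (10.8%, against 8.86%) and 298 lower (3.35%, against 4.86%). In Ts6 against Ts8, 383 were higher (4.30%, against 5.94%) and 679 lower (7.63%, against 7.07%), and in Ts8 against Ts11 402 were higher (4.52%, against 4.30%) and 122 lower (1.37%, against 2.92%). Each comparison with Ts15 also compares slides.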

How the data were processed

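Amplified RNA of 10 samples gave Cy3-labelled cDNA, per the labels, for 1-colour arrays. The deposited intensity values were made by the authors with Agilent Feature Extraction 10.7.3.1, per the file headers, which place the probes on mm9 and record no normalization between arrays; the deposited flags (0 or 1) say which spots are well above background. The deposited series table holds the authors' log2 values, whose scaling is not stated, and served as an alternative. No column of per-sample values was left unused.

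The log2 intensity minus the array's 75th percentile was averaged over unflagged spots of a probe. Of 55681 probes, 176 flagged on some array were left out (28 of them lincRNA probes of these autosomes), and a probe was kept only if some group had signal well above background in each of its arrays, which left 43056. The fit used R 4.3.3 and its package limma 3.58.1, with a mean for each group and 5 residual degrees of freedom, with Benjamini-Hochberg adjustment within each comparison. The fit was tested on simulated data. A bound sets the brighter group's mean against the higher of the lowest signal well above background and the dim probe's own, per array. Figures were drawn with matplotlib 3.10.9 and tables made with numpy 2.4.6 and pandas 2.3.3, under Python 3.11.15. Current gene symbols came from RefSeq (GRCm38.p6) by accession for 26729 probes; sequences and positions are those of the array files.

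Ts15 replicate 2's file had been saved through a spreadsheet, with intensities in 3 significant digits.

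The regions, lists and tests were chosen with earlier results of these data known. Named regions are the 6 brightest in WT. Per line the 4 highest and 4 lowest called regions and the 2 largest bounds each way are named. Up to 6 called in all lines and up to 6 opposite between lines are named too. Regions of the 3 runs with the most regions and regions within 5 kb of a listed noncoding RNA complete the set. Alternatives were another filter, quantile, median or normexp scaling, the series table, 1 probe per region, fewer arrays, passage, a replicate block and leaving out each array. The number of arrays limits the precision. The result for 1 listed noncoding RNA is not reported here.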

Additional observations from a re-analysis of the deposited data

Results flagged for a closer look

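In 11 lincRNA regions the representing probe was called above WT in one line and below it in another; the 6 with the widest gap between such lines are given. The gap follows from that choice and is a description. At chr14:77077374-77086910 (forward) Ts6 exceeded Ts8 by 6.46 (log2), and at chr13:94189389-94189810 (forward) Ts6 was at least 2.74-fold above Ts15, which was not well above background. At chr7:106529142-106529752 (reverse) Ts11 minus Ts15 was -2.68. Ts6 minus Ts8 was -2.84 at chr5:14923900-15062725, -2.39 at chr5:14996031-15035334 and -2.07 at chr5:14921737-14978834, 3 overlapping or adjoining forward-strand regions of the chromosome 5 run, in which all arrays of Ts6 lay below and all arrays of Ts8 above both WT arrays.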

How the results depend on the processing

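No named value reversed under any alternative; of 2104 alternative values 1486 kept their call and 618 kept the direction without the call. Called lincRNA probes in Ts6, Ts8, Ts11 and Ts15 numbered 688, 219, 500 and 798. With 1 probe per gene or region they were 216, 88, 198 and 302, with 916 for the F test among lines. With no filter on dim probes Ts8 had 26, Ts11 249 and Ts15 472, and with probes above background on all 10 arrays Ts8 had 379. Ts15 had 523 under quantile normalization, 405 with normexp correction and 514 in the series table. Using only the 4 arrays compared, Ts8 had 0 by limma (1411 at unadjusted p under 0.05, and 219 in the fit over all arrays), Ts11 4 and Ts15 197. Using only slide 1, Ts8 had 32 and Ts11 306. With passage as a covariate Ts6 had 192, Ts8 0 by limma (1448 at unadjusted p under 0.05), Ts11 1 and Ts15 145. Leaving out 1 array gave 180 to 394 in Ts6, 4 to 516 in Ts8, 156 to 257 in Ts11, 227 to 521 in Ts15 and 1194 to 2602 in the F test; 8897 to 9043 lincRNA probes were above background on the remaining WT array. Replicate numbers did not pair the samples: correlations of same-numbered deviations ran from -0.09 to 0.38, and a replicate block, which is also the slide row, gave 715, 146, 494 and 797 calls and 2524 in the F test and ended 13 of 144 calls of named regions. Other alternatives left these counts within 1.5 times. With 2 arrays per group few array pairs set each spread and signal near background gives only bounds.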
